A study of Mus musculus with 2 samples.

Results

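The 8 classical cadherins *Cdh1*, *Cdh2*, *Cdh3*, *Cdh4*, *Cdh5*, *Cdh6*, *Cdh11* and *Cdh20* were chosen by name from the 27998 genes counted in cells of the mouse ocular area, and all 8 were detected. The study compared gene expression in the lens placode between embryos with and without *Mab21l1*. For each genotype, wild type (WT) and *Mab21l1*-null (KO), cells of both optic areas of a single C57BL/6J embryo at the 26-somite stage (E9.25) were dissociated with trypsin and made into 1 library with the 10x Chromium 3′ system. Each captured transcript is counted once by its unique molecular identifier (UMI). As each genotype is 1 embryo, the values compare these 2 libraries, no test between genotypes was possible, and a difference between the genotypes, the embryos and the libraries cannot be told apart. *Mab21l1* itself was counted at 20.3 UMIs per 1000000 (CPM, 886 UMIs) over all barcodes of the library labelled WT and at 32.3 CPM (1718 UMIs) over those of the library labelled KO, which goes against the labels as a total. In ectoderm-like cells it was the other way, at 65.2 CPM (55 UMIs) and 40.8 CPM (25 UMIs), a ratio of KO over WT of 0.626 with an interval from 0.374 to 1.02, and in neural cells at 28.5 CPM (616 UMIs) and 50.1 CPM (1401 UMIs), a ratio of 1.76 (1.60 to 1.94). Which part of the gene the null allele lacks is not given in the sources used here, and 3′ counts outside that part would check nothing. The libraries are therefore called WT-labelled and KO-labelled, and where values come in pairs without a library name, the WT-labelled library comes first.

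Classical cadherins are transmembrane proteins that join neighbouring cells through calcium-dependent contacts of their outermost extracellular repeat. Their cytoplasmic tails bind p120-catenin and beta-catenin, and alpha-catenin links the complex to actin. E-cadherin (*Cdh1*) is the cadherin of the surface ectoderm and N-cadherin (*Cdh2*) that of the neural tube and optic vesicle. The change from *Cdh1* to *Cdh2* is known from neural tube formation, and the lens later comes to hold both.

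The members belong to 2 structural types that differ at the start of the mature protein, where the first extracellular repeat docks into that of the neighbouring cell. The first 30 coding bases after the site at which the precursor is cut are printed for 7 members from GENCODE transcripts of GRCm38, 5′ to 3′, because they separate the types by eye; capitals mark TGG, the codon of the docking residue tryptophan.
Cdh1: gacTGGgtcatccctcccatcagctgcccc
Cdh3: gagTGGgtgatgccaccaatattcgtcccc
Cdh4: gacTGGgtcatcccacccatcaacgttccc
Cdh5: gacTGGattTGGaatcaaatgcacatcgat
Cdh6: agtTGGatgTGGaatcagttcttcctcctg
Cdh11: ggcTGGgtcTGGaaccaattctttgtgata
Cdh20: agcTGGgttTGGaatcagttttttgtcctg
*Cdh1*, *Cdh3* and *Cdh4* had 1 such codon, as type I cadherins do, and *Cdh5*, *Cdh6*, *Cdh11* and *Cdh20* had 2, as type II cadherins do. *Cdh2* is a type I cadherin whose sequence is not shown here. All stretches are coding exon sequence: *Cdh1* at chr8:106653582-106653611 (plus strand, exon 4), *Cdh3* at chr8:106536618-106536647 (plus, exon 4), *Cdh4* at chr2:179797560-179797589 (plus, exon 4) and *Cdh5* at chr8:104113034-104113063 (plus, exon 2). *Cdh6* is at chr15:13091689-13091718 (minus, exon 2), *Cdh11* at chr8:102679651-102679680 (minus, exon 3) and *Cdh20* at chr1:104934274-104934303 (plus, exon 2). *Cdh3* and *Cdh1* are neighbours on chromosome 8 of GRCm38, both on the plus strand, with 46054 bases from the end of *Cdh3* (106510891 to 106557297) to the start of *Cdh1* (106603351 to 106670246). *Cdh5* (104101625 to 104144511, plus strand) and *Cdh11* (102632095 to 102785642, minus strand) are also on chromosome 8. No exon of any member overlaps an exon of another gene.

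The WT-labelled library held 43636657 UMIs over 1745 barcodes and the KO-labelled library 53148253 over 2458. With 1500 to 8000 genes detected and a mitochondrial share of 5% or less, the limits of the study, 1680 and 2404 cells remained, the numbers that the study states, with a median of 21037 and 18135 UMIs. Cells were classed by detected marker genes, none of them a cadherin, and a cell that passed exactly 1 gate was used. This gave, in the WT- and KO-labelled libraries, 45 and 38 ectoderm-like, 736 and 1070 neural, 499 and 788 mesenchymal, 27 and 24 neural crest-like, 63 and 98 endothelium-like, 37 and 50 erythroid-like and 17 and 6 macrophage-like cells. A further 174 and 234 cells passed no gate and 82 and 96 passed several.

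Within the classes, scores of fixed markers separated lens placode-like (LP) from surface ectoderm-like (SE) cells, neural retina-like, pigment epithelium-like and forebrain-like neural cells, and *Foxc*-high from *Alx*-high mesenchyme. LP held 19 and 14 cells and SE 20 and 17. Over both libraries, the median LP cell held 7 and the median SE cell 9 of 12 ectoderm markers, and the median endothelium-like cell 10 of 11 endothelium markers. The median forebrain-like cell held 3 of 10 forebrain markers and 5 of 10 optic vesicle markers. The latter were 8 in neural retina-like and 7 in pigment epithelium-like cells. The forebrain-like class may thus hold cells of the optic vesicle. *Sox2*, a lens placode marker, was at 131 CPM in LP and 8.22 in the other ectoderm-like cells of both libraries together, and *Wnt6* was at 299 CPM in SE and 31.0 in the others. The separation of SE was uneven: *Trp63* was at 105 and 31.0 CPM, *Dlx3* at 55.03 and 47.7, *Dlx6* at 12.9 and 10.7 and *Dlx5* at 34.0 and 47.7, lower in SE, and none of the surface ectoderm markers was among the 10 genes with the highest fold in SE. Both libraries held 15 identical barcode sequences, none of them in ectoderm-like cells. All intervals are exact 95% intervals (Poisson for a level, binomial for a share, conditional binomial for a ratio). They cover counting error only, not the spread between embryos. Those of UMI sums also leave out the spread between the cells of a class. Levels are UMIs per 1000000 UMIs of the class; as the 3′ system counts transcript ends, they do not depend on transcript length. In class sums, fewer transcripts per cell in all cells and expression in fewer cells give the same level, so the share of cells with a UMI is given beside the main results.

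The 8 members differed in the class where they were highest, and several were counted in many classes. *Cdh1* and *Cdh3* were highest in ectoderm-like cells, *Cdh2*, *Cdh4* and *Cdh20* in neural cells, *Cdh11* in *Foxc*-high mesenchyme, *Cdh6* in neural crest-like cells and *Cdh5* in endothelium-like cells. The highest of 11 classes was the same in both libraries for 6 members. It changed for *Cdh3* (SE and LP) and *Cdh4* (forebrain-like and neural retina-like). For both members the intervals of the named classes overlapped in both libraries, so their order is uncertain. Only for *Cdh3* in the WT-labelled library did the interval of the LP over SE ratio stay below 1 (0.576, 0.336 to 0.970). With clusters made without cadherin genes, *Cdh3* in the KO-labelled library was at 51.4 CPM in SE and 37.0 CPM in LP. *Cdh5* and *Cdh6* had the same highest class in both libraries and there stood at least 2-fold above the next class on a CPM + 1 scale, which 6.34% of 11473 genes did. On that scale the lead of the highest class was 1.07 and 1.84 for *Cdh1* and 1.18 and 1.34 for *Cdh2*.

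**Figure D1:**
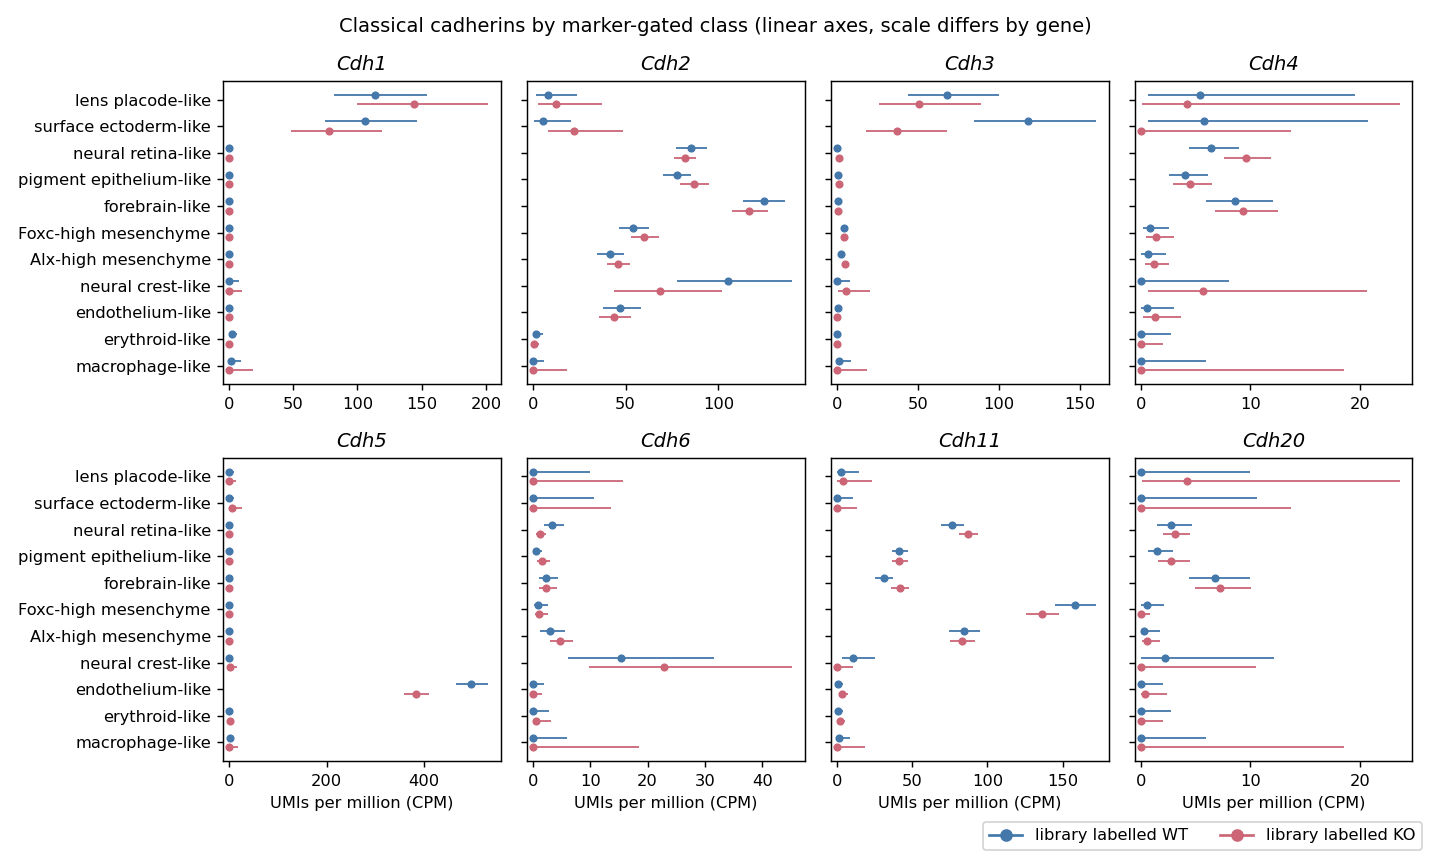
Level of each cadherin in UMIs per 1000000 (x axis, linear, with its own scale in each panel) in 11 marker-gated classes (y axis) of the WT-labelled library (blue) and the KO-labelled library (red); points are class sums and bars exact 95% Poisson intervals. *Cdh1* and *Cdh3* are high in the lens placode-like and surface ectoderm-like rows, *Cdh5* in the endothelium-like row, at 497 and 384 CPM, and *Cdh2* in the neural, mesenchymal, neural crest-like and endothelium-like rows.

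*Cdh1*, the epithelial cadherin, was counted at 104 CPM in ectoderm-like cells of the WT-labelled library (88 UMIs, interval 83.7 to 129) and at 106 CPM in those of the KO-labelled library (65 UMIs, 81.9 to 135). Its level was 114 CPM (42 UMIs) and 144 CPM (34 UMIs) in LP and 106 CPM (37 UMIs) and 77.9 CPM (21 UMIs) in SE. LP over SE was 1.07 (0.673 to 1.72) and 1.85 (1.04 to 3.35), so an order was not detectable at this depth in the first library, while in the second *Cdh1* was among the 10.1% of genes at least 1.5-fold higher in LP. In the first, 13.8% of genes were. The order in the second depended on the gates. With clusters made without cadherin genes, *Cdh1* of the KO-labelled library was at 86.8 CPM in LP (54 UMIs) and 96.0 CPM in SE (28 UMIs). A single ectoderm-like cell held 0 to 5 *Cdh1* UMIs (median 2) in the WT-labelled and 0 to 8 (median 1) in the KO-labelled library.

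*Cdh1* was nearly absent outside the ectoderm. In neural cells it was counted 3 times over 21630498 UMIs (0.139 CPM) in the WT-labelled library and 2 times over 27958550 (0.0715 CPM) in the KO-labelled library. The ratio of ectoderm-like over neural CPM was 752 (249 to 3718) and 1483 (394 to 12504). *Cdh1*, and *Cdh3* with 141 (79.2 to 270.0) and 49.1 (27.8 to 87.2), were thereby among the 1.23% and 1.14% of genes that were 10-fold or more higher in ectoderm-like than in neural cells. In erythroid-like cells 3 and 0 *Cdh1* UMIs were counted. None was found in neural crest-like or endothelium-like cells of either library, which allows a level of up to 8.09 and 10.6 CPM in the small neural crest-like class and up to 2.04 and 1.57 CPM in endothelium-like cells at the upper bound of the interval.

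The share of cells with a *Cdh1* UMI was 88.9% (75.9 to 96.3) of ectoderm-like cells in the WT-labelled library and 76.3% (59.8 to 88.6) in the KO-labelled library. In neural cells, which should lack the gene, it was 0.408% and 0.187%. These neural cells were deeper, with a median of 25493.5 and 22194 UMIs against 17554 and 15985 in ectoderm-like cells. If every cell is thinned to 8000 UMIs, the expected share in ectoderm-like cells is 62.5% and 54.4%. Here and below, thinning leaves out cells with fewer UMIs, 0 and 99 of the kept cells. In the KO-labelled library this left 36 of 38 ectoderm-like cells.

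*Cdh2*, the neural cadherin, showed the opposite pattern. It was counted at 90.7 CPM in neural cells of the WT-labelled library (1961 UMIs, 86.7 to 94.8) and at 89.5 CPM in those of the KO-labelled library (2503 UMIs, 86.1 to 93.1). In ectoderm-like cells only 5 UMIs (5.93 CPM, 1.93 to 13.8) and 11 UMIs (17.95 CPM, 8.96 to 32.1) were found. Ectoderm-like over neural CPM was 0.0654 (0.0212 to 0.153) and 0.201 (0.1000 to 0.359), where 4.57% and 7.75% of genes were 10-fold or more lower. *Cdh2* was among these genes in the WT-labelled library alone.

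*Cdh1* made up 94.6% (87.9 to 98.2) of the *Cdh1* and *Cdh2* UMIs of ectoderm-like cells labelled WT and 85.5% (75.6 to 92.5) of those labelled KO. In LP the share was 93.3% (81.7 to 98.6) and 91.9% (78.1 to 98.3), and in SE 94.9% (82.7 to 99.4) and 77.8% (57.7 to 91.4). The intervals of both libraries overlapped in every ectodermal class. In neural cells the share was 0.153% and 0.0798%, so the epithelial and the neural tissue of the eye stood at opposite ends of the scale, with no gated class in between among those with at least 20 UMIs of the pair.

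**Figure D2:**
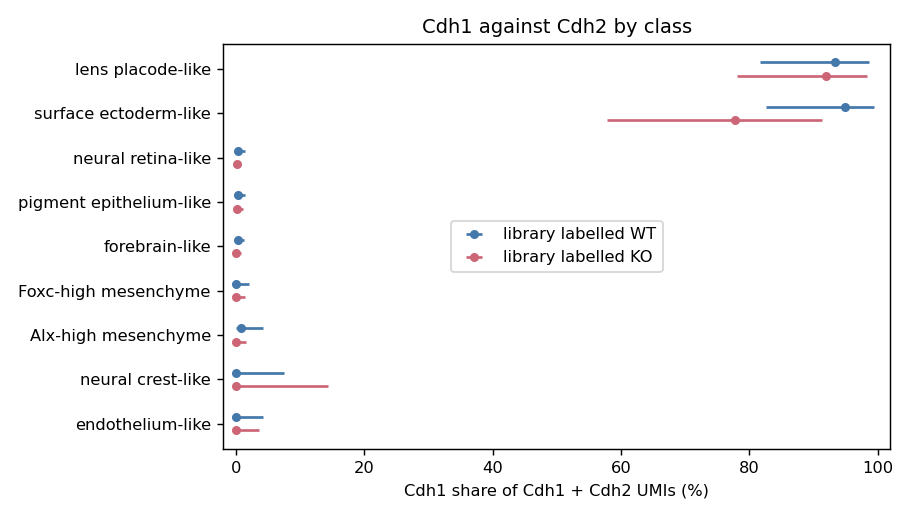
*Cdh1* as a percentage of *Cdh1* plus *Cdh2* UMIs (x axis) in 9 classes (y axis) of the WT-labelled (blue) and KO-labelled (red) libraries, with exact 95% binomial intervals over UMIs. The lens placode-like and surface ectoderm-like classes lie between 77.8% and 94.9% and the points of all other classes below 1%.

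This separation depended on the cells that passed the ectoderm and the neural gate at once and were left out. There were 11 such cells in the WT-labelled library and 10 in the KO-labelled library, with a median of 29940 and 38760.5 UMIs, more than in either pure class. They held *Cdh1* at 83.6 and 28.6 CPM and *Cdh2* at 78.0 and 64.4 CPM, and 6 of 11 and 6 of 10 held UMIs of both. The sums of the WT-labelled library rest on few cells. A single cell without *Cdh2* gave 12 of its 30 *Cdh1* UMIs, and another without *Cdh1* gave 11 of its 28 *Cdh2* UMIs. *Cdh11*, which was at 2.37 and 1.63 CPM in ectoderm-like cells, was at 44.6 and 45.3 CPM in the cells with both gates, close to the 49.1 and 61.2 CPM of neural cells. The genes of both gates, which chose these cells, lay mostly between the levels of the pure classes. The 10 optic vesicle markers were summed at 978 and 945 CPM in them, against 327 and 406 CPM in ectoderm-like and 1317 and 1370 CPM in neural cells, with 7 and 9 of the 10 between both classes. The 12 ectoderm markers were summed at 828 and 594 CPM, against 1951 and 2190 CPM in ectoderm-like cells, with 11 and 12 of the 12 between both classes. Scrublet, a doublet caller, called none of these cells, but it called only 0.458% and 0.325% of all barcodes, so whether a droplet held 1 cell or 2 was not settled by these calls. With all cells that passed the ectoderm gate together with another gate, the *Cdh1* share of the ectoderm was 78.1% and 68.6%, and in an ectoderm cluster of 106 cells made without cadherin genes (83 gated cells, 18 with several gates and 5 with none) it was 79.7% and 74.5%.

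Among cells that passed the ectoderm gate alone, 4 of 45 (8.89%, 2.48 to 21.2) and 7 of 38 (18.4%, 7.74 to 34.3) held UMIs of both cadherins. Of the 5 *Cdh2*-positive cells of the WT-labelled library none held more than 1 *Cdh2* UMI, and of the 8 of the KO-labelled library 1 held 3 and 1 held 2. In 1 random thinning to 8000 UMIs, 0 of 45 (upper bound 7.87%) and 2 of 36 cells (5.56%, 0.680 to 18.7) held both. Over all such thinnings the expected share with both was 3.48% and 6.62%, against 0.0294% and 0.0317% of neural cells.

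**Figure D3:**
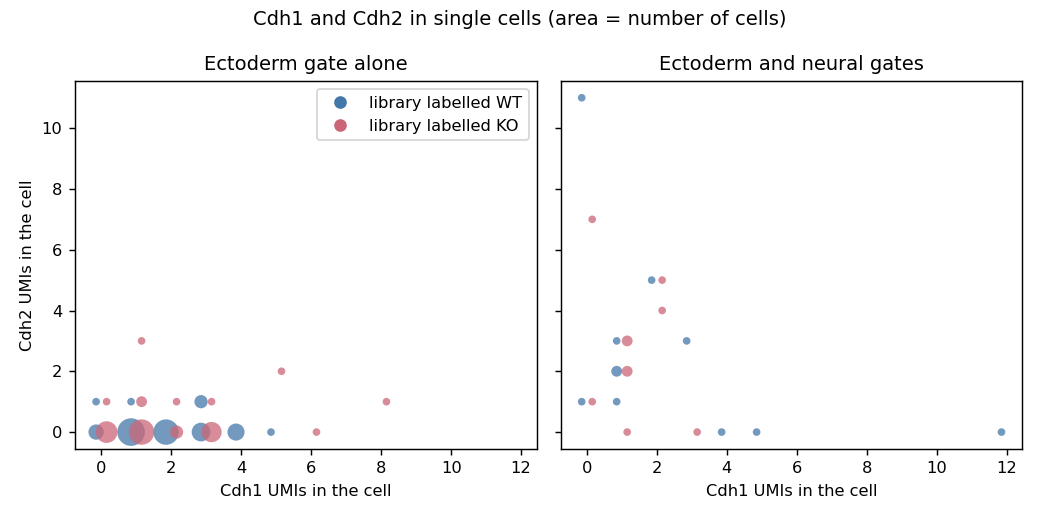
*Cdh1* UMIs (x axis) and *Cdh2* UMIs (y axis) of single cells in the WT-labelled (blue) and KO-labelled (red) libraries, in cells that passed the ectoderm gate alone (left) and in cells that also passed the neural gate (right); the area of a point is the number of cells, and colours are shifted sideways by a fixed 0.15 UMI. The cells on the left lie along the x axis with at most 3 *Cdh2* UMIs, and those on the right reach 11.

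Between the gated LP and SE cells, *Cdh2* could not be ordered. It was counted 3 times in LP and 2 times in SE of the WT-labelled library (ratio 1.42, 0.162 to 17.0) and 3 and 6 times in the KO-labelled library (ratio 0.571, 0.0924 to 2.67). The latter ratio was 2.81 in the cluster classes. In these, LP holds 36 and 30 cells, with *Cdh2* at 39.0 CPM (30 UMIs) and 38.6 CPM (24 UMIs). SE of the clusters had *Cdh2* at 4.93 CPM (2 UMIs) and 13.7 CPM (4 UMIs). By value LP was thus the higher in both libraries, and the order in the KO-labelled library depended on the classes. The median LP cell of the gates held 3 of 10 optic vesicle markers and the median SE cell 1. *Six3* is on this list and also on that which chose LP cells, so a part of this difference follows from the choice. The part of the class choice or of these markers in the *Cdh2* counts was not tested.

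Within the neural tissue *Cdh2* was highest in forebrain-like cells, with 124 and 117 CPM, against 85.3 and 81.8 CPM in neural retina-like and 77.7 and 86.8 CPM in pigment epithelium-like cells. Forebrain-like over neural retina-like CPM was 1.46 (1.28 to 1.67) and 1.43 (1.27 to 1.60), below the 1.5-fold that 7.46% and 7.69% of genes passed upwards. Neural retina-like and pigment epithelium-like cells did not differ beyond counting error, with ratios of 1.10 (0.956 to 1.26) and 0.943 (0.840 to 1.06). Outside the neural tissue *Cdh2* was at 105 and 68.6 CPM in neural crest-like cells, 54.2 and 60.1 CPM in *Foxc*-high mesenchyme, 41.6 and 45.9 CPM in *Alx*-high mesenchyme and 47.0 and 43.8 CPM in endothelium-like cells. It was held by 82.2% and 82.8% of neural cells and by 53.7% and 52.5% of mesenchymal cells, against 5.41% and 2.0% of erythroid-like cells, which should lack it and had a median of 34380 and 33458 UMIs.

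*Cdh3*, P-cadherin of surface epithelia, accompanied *Cdh1* in the ectoderm. It was at 118 CPM in SE (41 UMIs, 84.4 to 160) and 67.8 CPM in LP (25 UMIs, 43.9 to 100.1) of the WT-labelled library, and at 37.1 CPM in SE (10 UMIs, 17.8 to 68.3) and 50.9 CPM in LP (12 UMIs, 26.3 to 88.9) of the KO-labelled library. LP over SE was 0.576 (0.336 to 0.970) and 1.37 (0.543 to 3.54), with 11.7% of genes at least 1.5-fold lower in LP in either library. The single SE cells held 0 to 6 *Cdh3* UMIs with a median of 2 in the WT-labelled library and 0 to 2 with a median of 0 in the KO-labelled library. Unlike *Cdh1*, *Cdh3* was also counted in mesenchyme, at 3.67 CPM (35 UMIs) and 4.93 CPM (62 UMIs), against 0.105 and 0.0795 CPM (1 UMI each) for *Cdh1*.

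*Cdh4*, R-cadherin of the retina, was a low neural gene, with 6.24 CPM (135 UMIs) and 7.94 CPM (222 UMIs) in neural cells. It was at 6.39 and 9.59 CPM in neural retina-like, 4.09 and 4.47 in pigment epithelium-like and 8.61 and 9.35 in forebrain-like cells. Neural retina-like over pigment epithelium-like CPM was 1.56 (0.880 to 2.82) and 2.15 (1.37 to 3.48), where 6.74% and 5.91% of genes were 1.5-fold or more higher. In ectoderm-like cells 4 and 2 *Cdh4* UMIs were found.

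Of the type II members, *Cdh5* (VE-cadherin, the cadherin of blood vessels) was the most restricted. It was at 497 CPM (897 UMIs, 465 to 530) and 384 CPM (903 UMIs, 360 to 410) in endothelium-like cells and at or below 7.42 CPM in all other classes. It was held by 98.4% and 94.9% of endothelium-like cells, and by 1.22% and 1.68% of neural cells, with up to 42 and 34 UMIs in an endothelium-like cell. The endothelium-like class held *Cdh2* at 47.0 and 43.8 CPM, so both cadherins were counted in it.

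*Cdh11*, a cadherin of mesenchyme, was at 158 and 136 CPM in *Foxc*-high and 84.4 and 83.2 CPM in *Alx*-high mesenchyme, a ratio of 1.87 (1.61 to 2.18) and 1.64 (1.44 to 1.86). This put it among the 5.14% and 4.54% of genes that were 1.5-fold or more higher in *Foxc*-high mesenchyme. It was also neural, at 76.7 and 87.4 CPM in neural retina-like, 41.6 and 41.6 CPM in pigment epithelium-like and 31.0 and 41.9 CPM in forebrain-like cells. Neural retina-like over pigment epithelium-like CPM was 1.84 (1.56 to 2.18) and 2.10 (1.82 to 2.44). Of all genes, 6.74% and 5.91% were 1.5-fold or more higher there. Forebrain-like over neural retina-like CPM was 0.405 (0.327 to 0.499) and 0.479 (0.408 to 0.561), where 10% and 7.44% of genes were 1.5-fold or more lower. In both libraries, *Cdh2* was thus highest in forebrain-like and *Cdh11* in neural retina-like cells among the neural classes.

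*Cdh6* and *Cdh20* were low. *Cdh6* was highest in neural crest-like cells, at 15.3 CPM (7 UMIs, 6.17 to 31.6) and 22.9 CPM (8 UMIs, 9.88 to 45.1), and reached 3.39 and 1.27 CPM in neural retina-like cells. Its neural retina-like over pigment epithelium-like ratio was 6.09 (1.76 to 32.4) in the WT-labelled library and 0.822 (0.310 to 2.24) in the KO-labelled library. *Cdh20* was highest in forebrain-like cells, at 6.78 CPM (26 UMIs, 4.43 to 9.94) and 7.23 CPM (34 UMIs, 5.01 to 10.1). Forebrain-like over neural retina-like CPM was 2.43 (1.22 to 5.03) and 2.32 (1.36 to 3.99), where 7.46% and 7.69% of genes were 1.5-fold or more higher. No *Cdh6* UMI was found in ectoderm-like cells, which allows up to 4.37 and 6.02 CPM.

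Between the libraries, the class sums of *Cdh3*, *Cdh4*, *Cdh5* and *Cdh11* differed by more than counting error in some classes with at least 30 UMIs. Below that minimum, *Cdh6* in neural retina-like cells had 17 and 11 UMIs, a ratio of KO over WT CPM of 0.375 (0.159 to 0.848). *Cdh3* in the same cells had 0 and 12 UMIs, and no ratio was formed where a count was 0. For *Cdh1* and *Cdh2* the interval of the ratio included 1 in every class with at least 30 UMIs. In the 11 classes, 25 pairs of a member and a class had at least 30 UMIs over both libraries. Of these, 5 were past 1.5-fold. Among all genes with as many UMIs, 23.7% were past it in LP, 19.4% in SE, 16.5% in neural crest-like, 9.9% in endothelium-like, 8.79% in *Foxc*-high, 7.36% in *Alx*-high, 7.29% in forebrain-like, 6.71% in pigment epithelium-like and 5.52% in neural retina-like cells. *Cdh3* in SE was lower in the KO-labelled library, with a ratio of KO over WT CPM of 0.315 (0.141 to 0.640), and *Cdh2* in neural crest-like cells had 0.652 (0.382 to 1.09). The other 3 had ratios above 1.5 with intervals that include 1, namely *Cdh3* in *Alx*-high mesenchyme with 1.98 (0.870 to 5.05), *Cdh6* there with 1.62 (0.728 to 3.97) and *Cdh4* in neural retina-like cells with 1.501 (0.988 to 2.33). Without the cells of shared barcode sequences the last was 1.49, within the limit. With every cell thinned to the same number of UMIs, its expected levels were 7.81 and 8.63 CPM, a ratio of 1.11. Deep cells do not weigh more there. For the other pairs the expected ratio was 0.369 for *Cdh3* in SE, where 15 of 17 KO-labelled cells had enough UMIs, and 0.691 for *Cdh2* in neural crest-like cells. In *Alx*-high mesenchyme it was 1.69 for *Cdh3* and 1.23 for *Cdh6*.

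The 5 pairs are 20% of 25, against a mean background share of 9.99% when the share of each class is taken once for each of its pairs. All genes with at least 30 UMIs enter this share, which was not matched to the UMIs of the pairs. *Cdh3* and *Cdh6* in *Alx*-high mesenchyme were near that minimum, with 8 and 26 UMIs and with 9 and 24. Of all genes, 9.58% were 1.5-fold or more lower in SE, 4.05% higher by as much in *Alx*-high mesenchyme and 2.77% in neural retina-like cells. Of the pairs outside the limit, *Cdh3* in SE was the only 1 whose interval did not reach 1. It was past 1.5-fold in the same direction in every alternative that gave it a value, with ratios from 0.307 to 0.515, and under 2-fold only when the limits on detected genes and mitochondrial share were dropped. These alternatives were not independent. Several only rescaled the same 41 and 10 UMIs, and leaving out shared barcode sequences removed no ectoderm-like cell.

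In all ectoderm-like cells *Cdh3* was at 91.3 CPM (77 UMIs) in the WT-labelled library and 45.7 CPM (28 UMIs) in the KO-labelled library, a ratio of 0.5005 (0.313 to 0.780). Of all genes, 9.24% were 1.5-fold or more lower there and 16.3% past it in either direction. It was held by 71.1% (55.7 to 83.6) and 50.0% (33.4 to 66.6) of these cells, against 1.63% and 2.34% of neural cells. In LP alone its ratio was 0.750 (0.343 to 1.55), with an interval that overlaps that of SE. *Cdh1* had a ratio of 1.02 (0.726 to 1.42) in ectoderm-like cells, 1.27 (0.781 to 2.04) in LP and 0.734 (0.408 to 1.29) in SE. The ectoderm markers of the gate were summed at 2170 CPM in SE of the WT-labelled library and 2435 CPM in that of the KO-labelled library, and of the 9 with at least 30 UMIs 6 were higher and 3 lower in the KO-labelled library. The part of these markers in the *Cdh3* ratio was not tested.

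*Cdh5* in endothelium-like cells was lower in the KO-labelled library, with a ratio of 0.774 (0.705 to 0.850), short of 1.5-fold, which 5.25% of genes passed downwards. A single endothelium-like cell held a median of 11 *Cdh5* UMIs in the WT-labelled library and 7 in the KO-labelled library. The 11 endothelium markers were summed at 3790 and 3937 CPM, with 6 higher and 5 lower in the KO-labelled library.

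*Cdh11* was lower in mesenchyme of the KO-labelled library (124 and 107 CPM, ratio 0.861, 0.796 to 0.932) and higher in its neural cells (49.1 and 61.2 CPM, ratio 1.25, 1.15 to 1.35). Both were within 1.5-fold, which 5.57% of genes passed in mesenchyme and 4.53% in neural cells. The libraries also differed in the makeup of these classes. *Alx*-high cells, lower in *Cdh11* than *Foxc*-high cells, were 32.5% and 40.4% of mesenchymal cells. Neural retina-like cells, higher in *Cdh11* than the other neural subclasses, were 23.1% and 29.5% of neural cells. The part of this makeup in the *Cdh11* ratios was not tested. Within *Alx*-high mesenchyme the *Cdh11* ratio was 0.985 (0.842 to 1.15) and within *Foxc*-high mesenchyme 0.863 (0.766 to 0.972). It was 1.14 (1.01 to 1.29) within neural retina-like, 1.35 (1.07 to 1.71) within forebrain-like and 0.999 (0.829 to 1.20) within pigment epithelium-like cells. *Cdh4* in all neural cells had 1.27 (1.02 to 1.59). With every cell thinned to the same number of UMIs, the expected ratio in neural cells was 1.13 for *Cdh4* and 1.24 for *Cdh11*. *Cdh2* had ratios between 0.938 and 1.12 in the neural and mesenchymal subclasses.

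**Figure D4:**
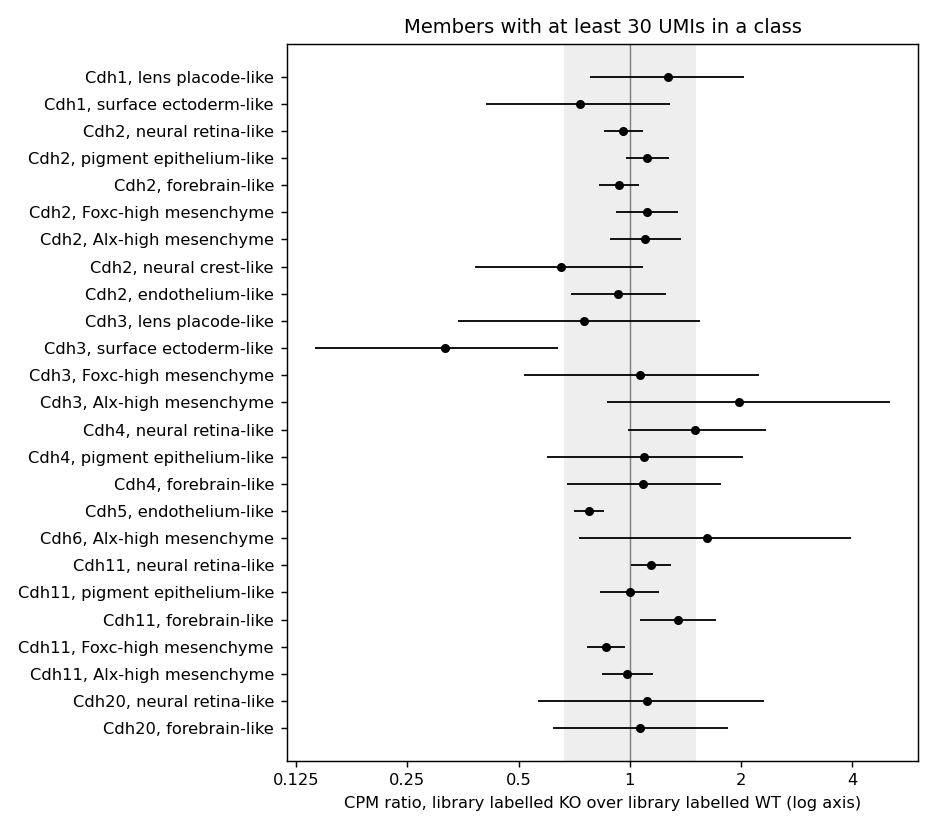
Ratio of CPM in the KO-labelled library over the WT-labelled library (x axis, log scale) for the 25 pairs of a cadherin and a class with at least 30 UMIs (y axis), with exact conditional 95% intervals; the grey band spans 1.5-fold either way. *Cdh3* in surface ectoderm-like cells, at 0.315, is the only point outside the band whose interval does not reach 1.

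The main catenins that bind classical cadherins, *Ctnnb1* and *Ctnna1*, were counted in both ectoderm-like and neural cells, while *Jup* was low in neural cells. *Ctnna1* and *Jup* were higher in ectoderm-like cells of both libraries, with intervals apart. Of 10 catenins and linkers, all were detected and 8 reached 20 CPM in a class. *Ctnnb1* (beta-catenin) was at 249 and 196 CPM in ectoderm-like and 174 and 176 CPM in neural cells, and *Ctnna1* (epithelial alpha-catenin) at 148 and 137 CPM and at 77.2 and 78.5 CPM. *Jup* (plakoglobin), which also serves desmosomes, was at 37.9 and 40.8 CPM in ectoderm-like and 1.99 and 2.58 CPM in neural cells, and was highest in endothelium-like cells, at 120 and 105 CPM. *Ctnna2* (neural alpha-catenin) was at 5.27 CPM (4.35 to 6.33) and 6.33 CPM (5.43 to 7.34) in neural cells. In ectoderm-like cells it had 1 UMI (1.19 CPM, 0.0300 to 6.61) and 3 UMIs (4.90 CPM, 1.01 to 14.3), so an order was not detectable. *Ctnna3* had no UMI in either class.

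*Ctnnd1* (p120-catenin) was at 52.2 CPM (44 UMIs) and 32.6 CPM (20 UMIs) in ectoderm-like cells. In LP it was at 70.5 CPM (26 UMIs) and 25.4 CPM (6 UMIs), a ratio of 0.361 (0.121 to 0.896) in a class where 13.6% of genes were 1.5-fold or more lower. *Ctnnb1* in SE had a ratio of 0.654 (0.444 to 0.950). Among the catenins and linkers, 7 had at least 30 UMIs in ectoderm-like cells, of which none was past 1.5-fold upwards and 1 downwards, where 9.24% of all genes were lower by as much. In neural cells 9 had so, with none past it in either direction, against 4.53% of all genes.

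Of 8 regulators known to repress *Cdh1* or to act in epithelial-mesenchymal transition, several were low where *Cdh1* was high. Some of these were also low in classes where *Cdh1* was nearly absent. Of the zinc-finger repressors, *Zeb1* was counted 0 times and 1 time in ectoderm-like cells and *Zeb2* 4 and 0 times. In neural cells they were at 33.2 and 31.8 CPM and at 56.6 and 52.4 CPM, and *Zeb2* reached 445 and 463 CPM in neural crest-like cells. *Snai1* was at 68.0 and 70.7 CPM in mesenchyme and 2.37 and 3.26 CPM in ectoderm-like cells, and *Twist1* at 118 and 84.7 CPM and at 0. In neural cells *Snai1* was at 1.02 and 1.18 CPM and *Twist1* at 0.832 and 0.966 CPM. *Zeb1* had 1 and 0 UMIs in neural crest-like cells. *Snai2* differed from these: this repressor was at 36.8 CPM (31 UMIs, 24.98 to 52.2) and 35.9 CPM (22 UMIs, 22.5 to 54.4) in ectoderm-like cells, against 18.3 CPM (15.6 to 21.2) and 19.95 CPM (17.6 to 22.6) in mesenchyme, with intervals apart in the WT-labelled library alone. The broadly expressed E proteins *Tcf3* and *Tcf4* were also counted in ectoderm-like cells, at 190 and 184 CPM and at 127 and 124 CPM. None of the 3 repressors with at least 30 UMIs in ectoderm-like cells, and none of 7 in neural cells, was past 1.5-fold between the libraries, against 16.3% and 4.53% of all genes.

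*Grhl2*, an activator of *Cdh1* in epithelia, was at 45.1 CPM (38 UMIs) and 26.1 CPM (16 UMIs) in ectoderm-like cells, and 1 and 0 UMIs were found in neural cells. In SE it was at 68.9 CPM (24 UMIs) and 22.3 CPM (6 UMIs), a ratio of 0.323 (0.108 to 0.812), where 9.58% of genes were 1.5-fold or more lower. In the same class *Cdh3* had 0.315 and *Cdh1* 0.734 (0.408 to 1.29), and a link of either to *Grhl2* was not tested. In LP *Grhl2* was at 29.8 and 29.7 CPM. The other 4 epithelial regulators listed (*Ovol1*, *Ovol2*, *Klf4* and *Esrp2*) had 2 to 9 UMIs in ectoderm-like cells of either library.

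**Figure D5:**
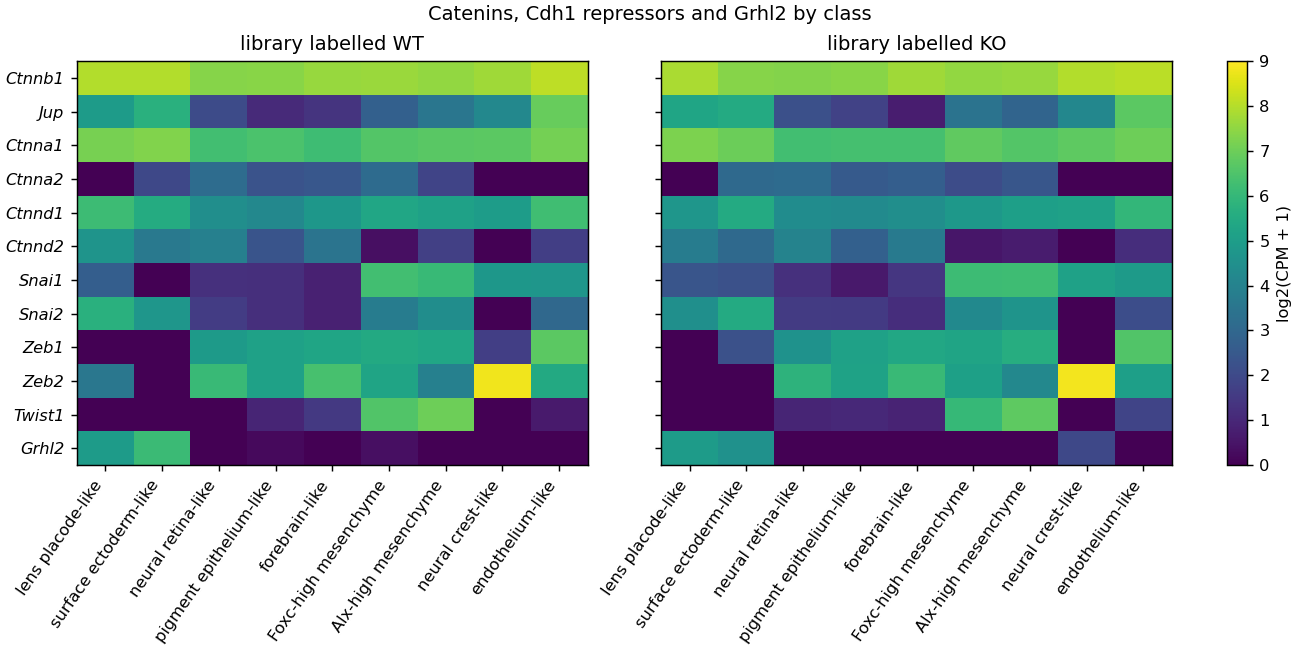
Level as log2(CPM + 1) (colour) of 6 catenins, 5 repressors of *Cdh1* and *Grhl2* (rows) in 9 classes (columns) of the WT-labelled (left) and KO-labelled (right) libraries. *Grhl2* is bright only in the 2 ectodermal columns, where *Zeb1*, *Zeb2* and *Twist1* are dark apart from 4 *Zeb2* UMIs in lens placode-like cells labelled WT and 1 *Zeb1* UMI in surface ectoderm-like cells labelled KO.

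For each member the genes with the most similar pattern were taken as the 3 highest Pearson correlations of log2(CPM + 1) over the 22 points of 11 classes and 2 libraries, among 11472 other genes with at least 100 UMIs; points of a class share cells and their size, so these are descriptions. *Cdh1* was most like *Cldn6*, *Krt7* and *Cldn7* (r = 0.980, 0.979 and 0.977), of which the claudin genes were markers of the ectoderm gate. *Cdh3* was most like *Krt8* (also a gate marker), *Ccdc68* and *Npnt* (0.935, 0.928 and 0.906), and its correlation with *Cdh1* was 0.875. *Cdh2* was most like *Tmod2*, *Cplx2* and *Arpin* (0.970, 0.967 and 0.957), and its correlation with *Cdh1* was -0.31. *Cdh5* was most like *Col15a1*, *Pecam1* (a gate marker) and *Arhgef15*, with 0.978, 0.964 and 0.958. *Cdh11* was most like *Adgrl3*, *Klhl29* and *Foxd1* (a *Foxc*-high marker), with 0.924, 0.911 and 0.905. *Cdh4* was most like *Adam22*, *Slain1* and *Mapk8ip2* (0.914, 0.891 and 0.860), *Cdh6* like *Arhgef26*, *Tmem132e* and *Fabp7* (0.904, 0.899 and 0.888, the last a gate marker) and *Cdh20* like *Cacna2d2*, *Vwc2* and *Atcay* (0.931, 0.916 and 0.913).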

How the data were processed

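The authors processed the 10x Chromium libraries with Cell Ranger on mm10 (GRCm38), joined them with its aggr program and deposited unscaled whole-number UMI counts per gene and cell; aggr may thin the deeper library. Cells of 1500 to 8000 genes with a mitochondrial share up to 5% were kept (the methods print 0.05%, read as a fraction).

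The members, markers and gene lists were chosen with earlier results of these data known, and gate limits were set after marker counts, but not cadherin counts, were seen. Gates needed 5 of 12 ectoderm, 5 of 14 mesenchyme, 6 of 11 endothelium, 4 of 7 neural crest, 5 of 9 erythroid or 4 of 7 macrophage markers; neural cells needed 5 of 10 optic vesicle markers, or 3 of 10 forebrain and 2 of 5 pan-neural ones. At the ectoderm limit were 8 cells, and 7 lay 1 marker below. A subclass needed a score lead of 0.3, which left 6 and 7 ectoderm-like cells unassigned. It also left 247 of 736 and 349 of 1070 neural cells and 154 of 499 and 199 of 788 mesenchymal cells without a subclass. Counts were summed per class and library, and only genes with at least 30 UMIs over both sums were counted as past a fold limit; ratios of members below this are printed with their counts or intervals. Scrublet called 8 barcodes in each library as doublets, removed only as an alternative. Interval code was tested on simulated data. Genes named were the members, their listed partners and the 3 most similar genes per member; *Sox2*, *Wnt6*, *Trp63* and the *Dlx* genes were named after their values were seen. Other alternatives were stricter gates, clusters, thinning, other scalings and other limits. Python 3.11.15, numpy 2.4.6, scipy 1.17.1, pandas 2.3.3, scanpy 1.11.5 and matplotlib 3.10.9 were used.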

Additional observations from a re-analysis of the deposited data

How the results depend on the processing

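Over 14 alternatives and 46 results, 338 of 364 values stayed within the interval of the reported value or, for a count, within 1.5 times of it, 24 moved further and 2 changed direction, which was read only for ratios past 1.5-fold. With clusters made without cadherin genes, the *Cdh1* share of *Cdh1* and *Cdh2* UMIs was 79.7% and 74.5% in the ectoderm and 73.9% and 69.2% in LP, and *Cdh2* in LP over SE was 2.81 in the KO-labelled library, against 0.571. With cells that passed several gates, the ectoderm share was 78.1% and 68.6%, and *Cdh1* was at 76.8 CPM in ectoderm labelled KO. In 1 random thinning to 8000 UMIs, the share was 100% in SE labelled WT and 0% in neural cells of both libraries, *Cdh1* was at 79.9 CPM in ectoderm labelled KO (ratio of KO over WT 0.653), *Cdh2* at 86.3 CPM in neural cells labelled WT (ratio 1.05), *Cdh5* at 341 CPM in endothelium labelled KO (ratio 0.674), *Cdh20* had a neural ratio of 0.743, and *Cdh2* in LP over SE was 1.07 in the KO-labelled library. The exact expectation over such thinnings gives KO over WT ratios of 0.942 for *Cdh1*, 0.758 for *Cdh5* and 0.942 for *Cdh20*. For *Cdh4* in neural retina-like cells it gives 1.11, within 1.5-fold. As a mean over cells, *Cdh5* was at 358 CPM in endothelium labelled KO. The 5 pairs past 1.5-fold became 1 with stricter gates, clusters, thinning, a limit of 2-fold or at least 100 UMIs, but not always the same 1. With a limit of 2-fold it was *Cdh3* in SE. With at least 100 UMIs *Cdh3* in SE, with 41 and 10 UMIs, was not counted, and the pair left was *Cdh4* in neural retina-like cells. The clusters gave no *Foxc*-high or *Alx*-high class, so pairs of these classes could not be counted there. With all UMIs, cells with both *Cdh1* and *Cdh2* were 8.89% of ectoderm labelled WT, against 0 thinned.

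No paired analysis was possible because each genotype is 1 library, and for the same reason no library was left out. Leaving out the minimum of UMIs changed no level, since levels used none. Depth limits the small classes: with 0 UMIs, the limit of 3 counts is 8.14 and 12.7 CPM in LP and 8.61 and 11.1 CPM in SE, against 0.139 and 0.107 CPM in neural cells.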

Other observations

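Of 15 further cadherins listed beside the 8 members, 13 had at least 1 UMI and 1 reached 20 CPM in a class. This was *Cdh19*, known from Schwann cell precursors, at 30.7 CPM (14 UMIs) and 42.9 CPM (15 UMIs) in neural crest-like cells, against 3 and 4 UMIs in all mesenchyme.

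Past 1.5-fold between the libraries were *Cdh13* (T-cadherin, which lacks a cytoplasmic tail) in neural cells, with 2.27 and 3.54 CPM (ratio of KO over WT 1.56, 1.10 to 2.25), and *Cdh15* (M-cadherin of muscle precursors) in mesenchyme, with 3.15 and 5.80 CPM (1.84, 1.19 to 2.92). Of the further cadherins, 6 had at least 30 UMIs in neural cells and 2 in mesenchyme, and no other was past the limit there, where 2.58% and 2.83% of all genes were higher by as much. Among subclasses, *Cdh13* was past it in forebrain-like cells (2.24, 0.961 to 5.82) and *Cdh15* in *Foxc*-high mesenchyme (1.80, 0.881 to 3.90), with intervals that include 1.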
